A study of Rattus norvegicus with 19 samples.

Results

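Hippocampal RNA of rats carrying a duplication of the 16p11.2-homologous interval was compared between animals whose other chromosome was deleted for the same interval (Del/Dup) and animals whose other chromosome was intact (Dup/+). The comparison held 9 of the 19 libraries of the series, taken by the genotype named in the sample descriptions: Del/Dup replicates 2 to 5 (n = 4) and Dup/+ replicates 1 to 5 (n = 5), 1 male Sprague-Dawley rat per library. Both groups carried the tandem duplication from *Sult1a1* to *Spn* on one chromosome, so that Dup/+ rats had 3 copies of the interval and Del/Dup rats, with none on the other chromosome, had 2. All genotypes were littermates from crosses of Del/+ with Dup/+ rats, and each rearrangement was made by CRISPR/Cas9 on an outbred background. The 6 wt libraries (2 copies, 1 on each chromosome) and the 4 Del/+ libraries (1 copy) are used only as context. The age of the rats whose RNA was sequenced is not given in the labels.

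The human 16p11.2 segment is deleted or duplicated in some people with autism, intellectual disability, epilepsy, schizophrenia or altered body weight. It holds genes of the ERK cascade (*Mapk3*), of RhoA turnover through the CUL3 ubiquitin ligase (*Kctd13*), of neuronal kinase signalling (*Taok2*) and of transmitter release (*Prrt2*, *Doc2a*). In Del/Dup rats the number of copies is that of wt but both copies lie on one chromosome, which is why this genotype is called pseudo-disomic. Set against Dup/+, it differs by design in the third copy, while the duplicated chromosome is kept.

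The sequences that define the alleles are shown because the whole comparison rests on these 2 borders. Both lines were made with a pair of guides, one at each end of the interval. The target sequences are spelled as in the study's methods, which state no direction for them:
guide cr595: gcaatctcacgtgtctgatgg
guide cr598: gtgacatcgtgaccctgctgg
A Dup/+ rat was recognised by PCR across the junction of the tandem duplication, and a Del/Dup rat carries in addition the junction of the deletion. The duplication primers were:
primer Dup rHamont99Rev: cgctttgatgcccactat
primer Dup rHavalB84For: agctgtgatcctctggtt
The deletion primers were:
primer Del rHamont99For: gggctggcagacttgaa
primer Del rHavalB284 Rev: gtgccacgatcagcagt
None of the 6 sequences, on either strand, was found in the 33469 RefSeq promoter windows of GRCr8, which says only that these letters lie outside those windows.

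Levels are counts-per-million (CPM) after trimmed-mean scaling of the library sizes. A gene was called when the Benjamini-Hochberg adjusted p of edgeR's quasi-likelihood test was under 0.05 over all 15440 genes tested. Fold changes are Del/Dup over Dup/+ on the log2 scale with their standard error (SE), so a negative value is lower in Del/Dup. Counts over genes totalled 16191192 to 29183777 reads in Dup/+ and 19464204 to 25480872 in Del/Dup, and the log2 totals differed by -0.08 (two-sided exact permutation p = 0.714, adjusted p = 0.714). Multi-mapped reads, which align at several places, took up 45.1% to 50.5% of all counted lines in Dup/+ and 57.8% to 70.7% in Del/Dup, with no overlap. The difference was 16.3 percentage points (two-sided exact permutation p = 0.0159, which no arrangement of the 126 can undercut, and 0.0212 adjusted over 4 measures). Reads without a gene made up 12.2% to 14.5% in the Dup/+ libraries, against 8.83% to 12.1% in Del/Dup (two-sided exact permutation p = 0.0159, adjusted p = 0.0212). The multi-mapped share and the genotype therefore cannot be told apart among these 9 libraries. In the other genotypes the share was 40.1% to 47.6% in wt and 41.6% to 76.3% in Del/+. Markers of hippocampal neurons were present in all 9 libraries: *Prox1*, a transcription factor of dentate granule cells, stood between 76.8 and 189 CPM, *Neurod6*, of pyramidal neurons, between 189 and 275 CPM, and *Camk2a*, a kinase of excitatory neurons, between 1280 and 1860 CPM.

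Of the 15440 genes, 49 were called (0.317%), 28 lower in Del/Dup (0.181%) and 21 higher (0.136%). At an unadjusted p under 0.05 there were 2083 genes (13.5%), 1148 of them higher. All Del/Dup libraries lay below all Dup/+ libraries for 319 genes (2.07%) and above them for 385 (2.49%). The median log2 fold change of all genes was -0.001.

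The interval accounted for 20 of the 28 genes called lower. Its list held 35 genes, the files 34 of them, and 28 passed the filter on low counts; all 28 had a negative log2 fold change, 25 had an unadjusted p under 0.05 and none was higher. The median of the 28 was -0.62, a level of 0.651 of that in Dup/+, beside the log2 ratio of 2 to 3 copies, -0.585 (0.667). For 24 of the 28 genes every Del/Dup library lay below every Dup/+ library. The 95% interval of the log2 fold change covered the ratio of copies for 22 genes, lay below it for 3 (*Sult1a1*, *Sez6l2* and *Aldoa*) and above it for 3 (*Mvp*, *Ypel3* and *Pagr1*). These intervals were not adjusted for the number of genes. Apart from *Sult1a1*, those that left out the ratio came close to it, with nearer ends from -0.593 to -0.566.

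**Figure D1:**
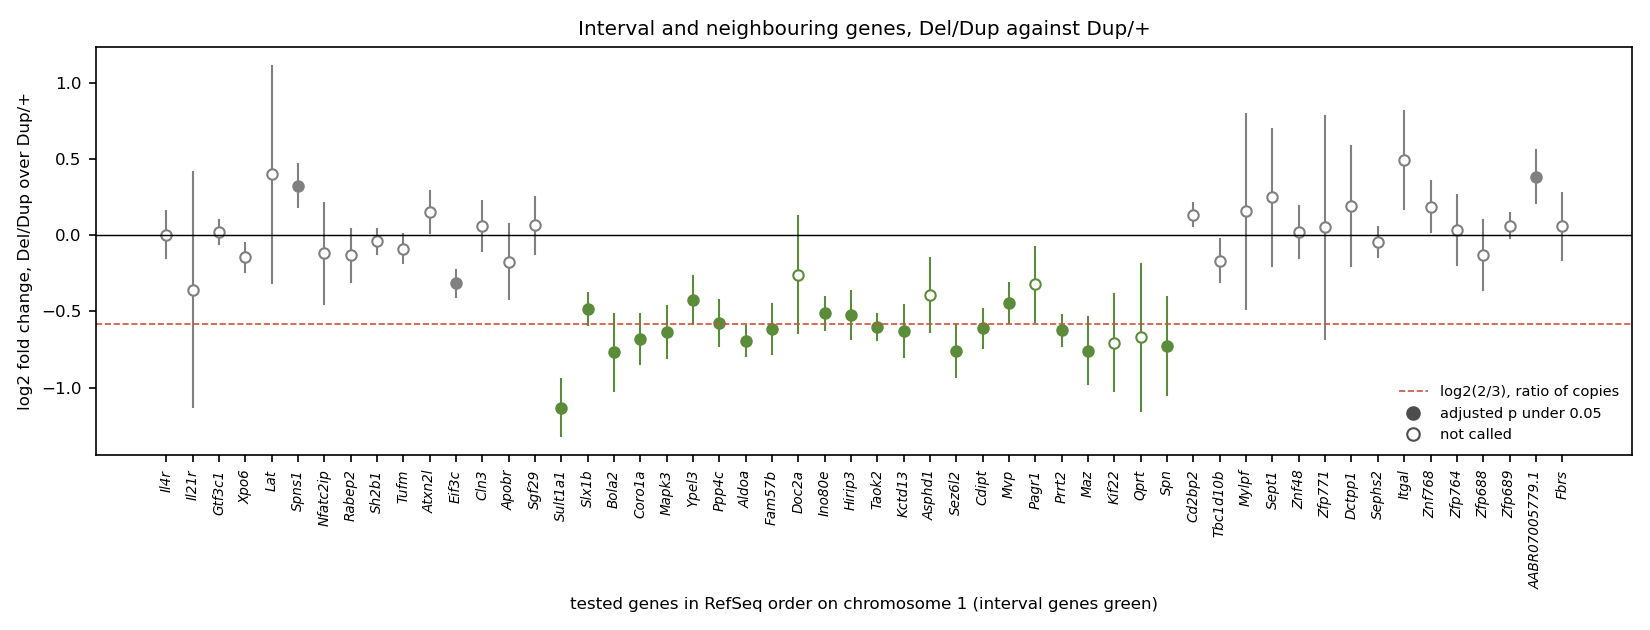
Log2 fold change of Del/Dup over Dup/+ (vertical axis, point and 95% interval) for the tested genes placed by the RefSeq table, in gene order on chromosome 1 with 15 neighbours on each side; green marks interval genes, filled points called genes, and the dashed line the log2 ratio of copies, -0.585. Every interval gene placed lies below 0, *Sult1a1* is the lowest at -1.13, and the neighbours on both sides scatter around 0.

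The 4 signalling genes of the interval were all lower. *Taok2* (ENSRNOG00000019964), a kinase acting upstream of stress-activated MAP kinases, stood at 328, 322, 338, 338 and 328 CPM in the Dup/+ libraries and at 213, 219, 213 and 224 CPM in the Del/Dup libraries. No library of one group came near the other, and the log2 fold change was -0.60 (SE 0.041, adjusted p = 3.88e-08). *Mapk3* (ENSRNOG00000053583), which encodes the kinase ERK1, stood at 154, 147, 139, 129 and 135 CPM in Dup/+ and at 81.2, 98.5, 93.8 and 89.1 CPM in Del/Dup (log2 fold change -0.64, SE 0.083, adjusted p = 2.42e-04). *Kctd13* (ENSRNOG00000020010), the CUL3 adaptor that directs RhoA to degradation, stood at 120, 116, 123, 110 and 122 CPM in Dup/+ and at 63.6, 85.3, 77.4 and 78.6 CPM in Del/Dup. Its lowest library was Del/Dup replicate 2, and no library of one group reached the other (log2 fold change -0.63, SE 0.082, adjusted p = 2.42e-04). *Ppp4c* (ENSRNOG00000019813), the catalytic subunit of protein phosphatase 4, fell from a mean of 41.7 to 28 CPM (log2 fold change -0.58, SE 0.072, adjusted p = 1.69e-04).

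Among the synaptic and neuronal membrane genes 3 of 4 were called. *Prrt2* (ENSRNOG00000029366), a presynaptic protein of the release machinery mutated in paroxysmal dyskinesia, stood at 219, 215, 208, 196 and 207 CPM in Dup/+ and at 131, 145, 134 and 133 CPM in Del/Dup (log2 fold change -0.62, SE 0.050, adjusted p = 2.58e-07). *Sez6l2* (ENSRNOG00000027098), a neuronal surface protein, stood at 780, 762, 757, 847 and 736 CPM in Dup/+ and at 375, 516, 463 and 484 CPM in Del/Dup. Del/Dup replicate 2 was again lowest, and the log2 fold change was -0.76 (SE 0.082, adjusted p = 2.36e-05), with a 95% interval from -0.928 to -0.586. *Fam57b* (ENSRNOG00000019914), related to ceramide synthesis, fell from 21.8 to 14.2 CPM (log2 fold change -0.62, adjusted p = 1.80e-04).

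*Doc2a* (ENSRNOG00000019920), a calcium sensor of asynchronous and spontaneous release, was the member of this group that did not pass the test. It stood at 18.3, 13.3, 17.7, 11.2 and 13.3 CPM in Dup/+ and at 15.7, 10.1, 12.7 and 10.6 CPM in Del/Dup, so that the groups overlapped (log2 fold change -0.26, SE 0.185, adjusted p = 0.561). Its 95% interval, from -0.644 to 0.126, held both 0 and the ratio of copies, and a drop in proportion to copy number could not be told from no change. In the context groups *Doc2a* averaged 9.68 CPM in wt and 5.44 CPM in Del/+.

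**Figure D2:**
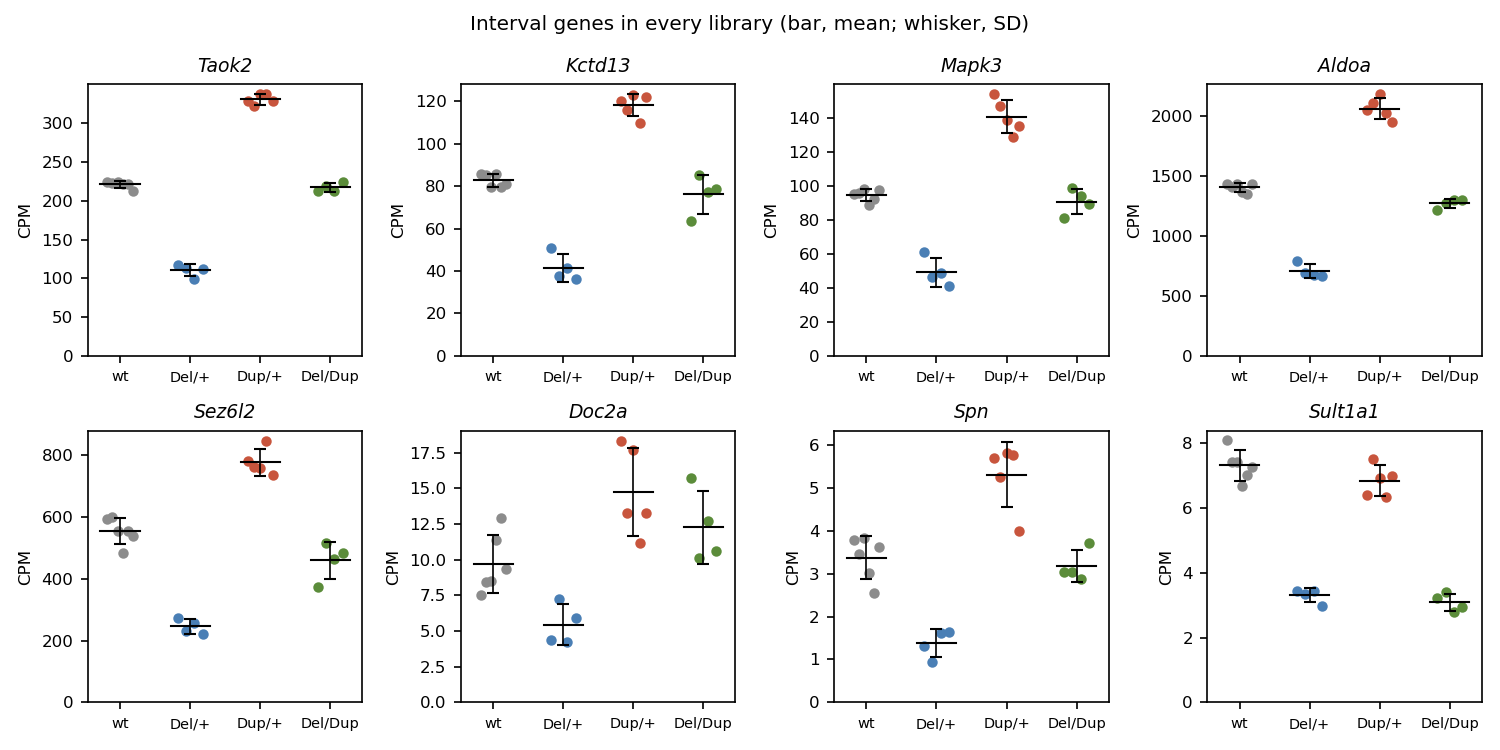
CPM (vertical axis, from 0) of 8 interval genes in each of the 19 libraries by genotype; points are libraries, bars means and whiskers SD. *Taok2*, *Kctd13*, *Mapk3*, *Aldoa*, *Sez6l2* and *Spn* separate Dup/+ from Del/Dup, *Doc2a* overlaps, and *Sult1a1* stands near 7 CPM in wt and Dup/+ and near 3 CPM in Del/+ and Del/Dup.

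Of the 6 tested genes of metabolism and membranes, 4 were called. *Aldoa* (ENSRNOG00000052802), the glycolytic aldolase A, was the most abundant interval gene in CPM and stood at 2050, 2110, 2190, 2030 and 1950 CPM in Dup/+ and at 1220, 1280, 1300 and 1300 CPM in Del/Dup. Its log2 fold change was -0.69 (SE 0.048, adjusted p = 3.88e-08), with a 95% interval from -0.794 to -0.593. *Cdipt* (ENSRNOG00000024144), the phosphatidylinositol synthase, fell from 145 to 95 CPM (log2 fold change -0.61, adjusted p = 1.29e-05). The gene listed as AABR07005779.2 (ENSRNOG00000020000) fell from 11.1 to 6.45 CPM (log2 fold change -0.78, adjusted p = 1.12e-04). *Qprt*, an enzyme of NAD synthesis from quinolinate, averaged 1.65 CPM in Dup/+ and 1.02 CPM in Del/Dup and was not called (log2 fold change -0.67, SE 0.231, adjusted p = 0.226). *Asphd1* averaged 20.3 and 15.3 CPM and was not called either (log2 fold change -0.39, SE 0.116, adjusted p = 0.157).

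*Sult1a1* (ENSRNOG00000019342), a phenol sulfotransferase and the first gene of the interval, departed from the ratio of copies. It stood at 6.40, 7.51, 6.93, 6.35 and 7 CPM in Dup/+ and at 3.22, 3.4, 2.80 and 2.94 CPM in Del/Dup, a level of 0.456 of that in Dup/+. The log2 fold change was -1.13 (SE 0.090, adjusted p = 2.58e-07) and its 95% interval, from -1.32 to -0.944, left out the ratio of copies. The wt libraries lay between 6.68 and 8.11 CPM and the Del/+ libraries between 2.98 and 3.45 CPM. The level in Dup/+, with 3 copies of the interval, thus lay in and just under the range of wt with 2. The level in Del/Dup, with 2 copies, lay at that of Del/+ with 1. The number of copies of *Sult1a1* itself was not measured in these data. *Slx1b* (ENSRNOG00000019369), the next gene, a subunit of a structure-specific nuclease, did not share this pattern: it averaged 26.0 CPM in wt, 12.7 in Del/+, 40.4 in Dup/+ and 28.8 in Del/Dup (log2 fold change -0.49, SE 0.051, adjusted p = 1.45e-05).

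The nuclear genes fell by somewhat varied amounts, 5 of the 7 tested being called. *Maz* (ENSRNOG00000055082), a zinc finger transcription factor, stood at 52.5, 50.6, 59.3, 55.4 and 54.8 CPM in Dup/+ and at 28.7, 40.0, 33.4 and 27.0 CPM in Del/Dup (log2 fold change -0.76, SE 0.104, adjusted p = 4.71e-04). *Ino80e* (ENSRNOG00000019960), a subunit of the INO80 chromatin remodeller, stood at 55.8, 52.6, 53.2, 49.1 and 49.8 CPM in Dup/+ and at 36.0, 36.3, 37.2 and 36.5 CPM in Del/Dup (log2 fold change -0.51, SE 0.053, adjusted p = 1.29e-05). The 4 Del/Dup values of *Ino80e* lay close together. *Hirip3*, a histone-binding protein, fell from 32.9 to 22.8 CPM (log2 fold change -0.52, adjusted p = 8.33e-04), and *Ypel3*, a growth-suppressing gene, from 134 to 100 CPM (log2 fold change -0.42, adjusted p = 0.0102). *Kif22*, a chromosome-binding kinesin, lay just past the threshold with 1.99 and 1.18 CPM (log2 fold change -0.70, SE 0.153, edgeR adjusted p = 0.0526) and was called by DESeq2, and *Pagr1*, of the MLL3/MLL4 histone methyltransferase complexes, stood at 6.13 and 4.89 CPM (log2 fold change -0.32, SE 0.118, adjusted p = 0.247).

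The remaining group, of cytoskeletal, immune and other genes, was called in full. *Coro1a* (ENSRNOG00000019430), an actin regulator of leukocytes and neurons, stood at 160, 160, 163, 151 and 150 CPM in Dup/+ and at 81.9, 108, 99.2 and 102 CPM in Del/Dup (log2 fold change -0.68, SE 0.078, adjusted p = 5.43e-05). *Bola2*, of iron-sulfur protein maturation, fell from 14.3 to 8.35 CPM (log2 fold change -0.77, adjusted p = 0.00265), and *Mvp*, the major vault protein, from 24.6 to 18.1 CPM (log2 fold change -0.44, adjusted p = 5.52e-04). *Spn* (ENSRNOG00000036711), the leukocyte sialoglycoprotein CD43 and last gene of the interval, stood at 5.70, 5.26, 5.80, 5.77 and 4.00 CPM in Dup/+ and at 3.04, 3.04, 2.88 and 3.72 CPM in Del/Dup (log2 fold change -0.73, SE 0.154, adjusted p = 0.0473). Dup/+ replicate 5 came close to the highest Del/Dup library, and the *Spn* call was lost in 14 of the 19 fits that each left out 1 library.

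Of the unnamed genes, LOC308990, AABR07005779.7 and AABR07005779.6 were tested and not called, with log2 fold changes of -0.68, -0.42 and -0.21. The 6 genes in the files that did not pass the filter on low counts were *Zg16*, *Gdpd3*, *Tbx6*, RGD1563217, LOC102552638 and AABR07005778.1. *Tbx6*, a mesodermal transcription factor, had the most reads, 4 to 13 in a Dup/+ library and 5 to 11 in a Del/Dup library, at which depth no difference could be detected. *Tmem219* was not analysed here.

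Across libraries, the median over the 28 interval genes of log2 CPM minus the Dup/+ mean was -0.67, -0.54, -0.58 and -0.59 in Del/Dup replicates 2, 3, 4 and 5. In Dup/+ it ran from -0.055 to 0.037. The 6 wt libraries, with the same number of copies as Del/Dup on separate chromosomes, ran from -0.60 to -0.47 and overlapped Del/Dup, and the Del/+ libraries from -1.62 to -1.41. One wt library, replicate 5, has a genotype entry that reads Dup/+ against its description; its interval level was -0.56, inside the range of the other wt libraries. Counting it as Dup/+ gave a median interval log2 fold change of -0.549 and 9 interval calls.

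AABR07015081.2 (ENSRNOG00000054945), an unnamed gene of high count, stood at 1050 to 3450 CPM in Dup/+ and at 7620 to 15500 CPM in Del/Dup without overlap, and was not called (log2 fold change 2.31, SE 0.539, adjusted p = 0.0745). Its level moved with the multi-mapped share: it stood at 394 to 2560 CPM in wt, at 10129 to 22705 CPM in Del/+ replicates 1 to 3, with shares of 63.9% to 76.3%, and at 1690 CPM in Del/+ replicate 4, with a share of 41.6%. With a term for libraries of high share its log2 fold change turned to -1.04, again without a call.

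**Figure D3:**
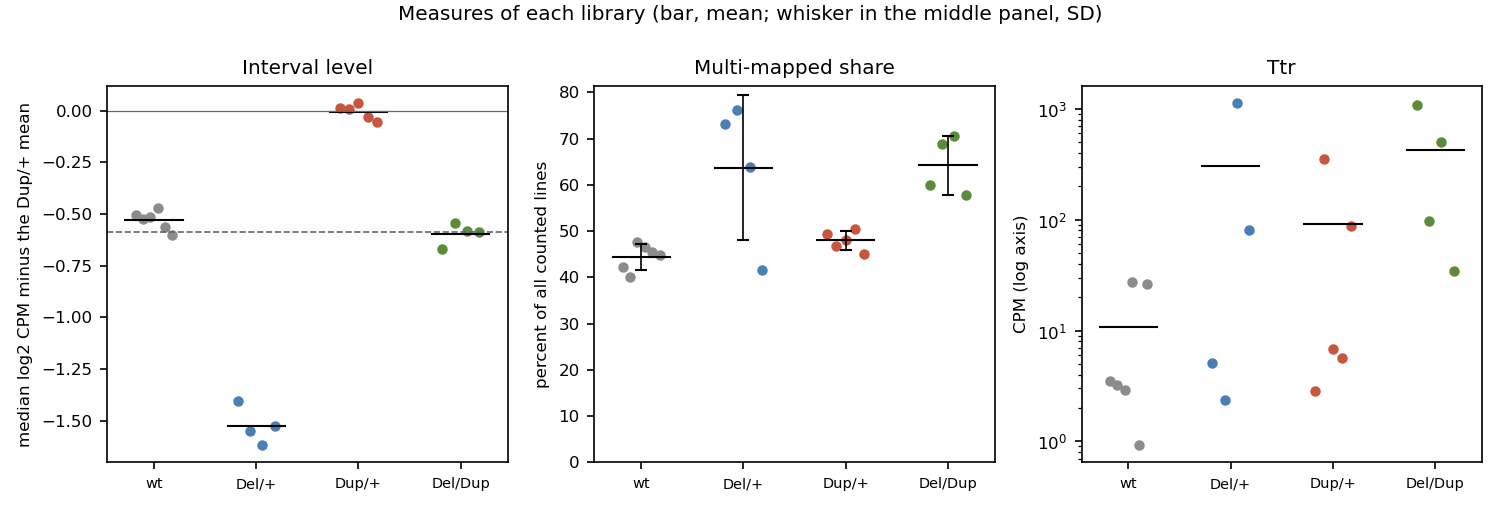
Measures of each library by genotype (points, libraries; bars, means): the interval level as the median log2 CPM minus the Dup/+ mean with a dashed line at -0.585, the multi-mapped share in percent of all counted lines with SD, and *Ttr* in CPM on a log axis. In interval level Del/Dup overlaps wt, with replicate 2 below every wt library, and lies below Dup/+. Its multi-mapped shares of 57.8% to 70.7% do not overlap Dup/+, and it spans 34.4 to 1090 CPM for *Ttr*.

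With a term for libraries of high multi-mapped share (over 55%), which separates from genotype only through Del/+ replicate 4, the median interval log2 fold change was -0.572 and 6 interval genes were called. *Sult1a1*, *Taok2*, *Sez6l2* and *Aldoa* were called in each of the 32 alternative fits. With that share as a covariate on the log2 scale, 18 interval genes were called and the median was -0.621.

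The genes next to the interval were examined for differences reaching past its ends. Of 36 flanking genes listed, the files held 31 and 27 passed the filter, with a median log2 fold change of 0.05; 1 was called lower and 1 higher. *Eif3c* (ENSRNOG00000018761), a core subunit of translation initiation factor 3, stood at 237, 232, 246, 227 and 225 CPM in Dup/+ and at 176, 199, 189 and 188 CPM in Del/Dup. No libraries overlapped, and the log2 fold change was -0.31 (SE 0.043, adjusted p = 4.71e-04). It averaged 226 CPM in wt and 208 CPM in Del/+, and lay 4 tested genes before *Sult1a1* in the RefSeq order. *Spns1* (ENSRNOG00000017621), a lysosomal lysophospholipid transporter, stood at 36.9, 44.1, 40.1, 41.2 and 42.7 CPM in Dup/+ and at 48.6, 50.7, 56.0 and 50.4 CPM in Del/Dup (log2 fold change 0.33, SE 0.068, adjusted p = 0.0413). The *Spns1* call was lost in 9 of the 19 fits without 1 library, while that of *Eif3c* was kept in all 19 and lost with the term for high multi-mapped share.

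The immediate neighbours were not called by edgeR: *Sgf29*, before *Sult1a1*, had a log2 fold change of 0.07, and *Cd2bp2*, after *Spn*, one of 0.14 (SE 0.036, adjusted p = 0.112); DESeq2 did call *Cd2bp2*, beside *Eif3c* and *Spns1*. Taking 25 tested genes to each side, 3 of 50 were called (6%), within 100 genes 3 of 200 (1.5%), and within 500 genes 7 of 1000 (0.7%). On chromosome 1 outside the interval 8 of 1654 were called (0.484%), and on the other chromosomes 17 of 11984 (0.142%). Over all genes tested the share was 0.317%, which counts the interval. Outside the interval 29 of 15412 were called. The third gene within 25 steps, AABR07005779.1 (ENSRNOG00000018518), for which the RefSeq table gives the name *Prr14*, was named after its values were seen; it averaged 8.93 CPM in Dup/+ and 11.7 CPM in Del/Dup (log2 fold change 0.39, SE 0.083, adjusted p = 0.0491), and its call was lost in 16 of the 19 fits without 1 library.

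Outside the interval the calls numbered 29, of which 21 were higher and 8 lower in Del/Dup, and the median size of their log2 fold change was 0.445. Outside means absent from the interval list, and some of these genes, such as AABR07070225.1, have no place in the RefSeq table. *L3mbtl2* (ENSRNOG00000024743), a histone-binding member of a Polycomb complex, stood at 30.3, 31.8, 32.6, 29.9 and 32.0 CPM in Dup/+ and at 36.5, 37.8, 40.4 and 39.5 CPM in Del/Dup (log2 fold change 0.30, SE 0.049, adjusted p = 0.00439). Its relative *L3mbtl1* (ENSRNOG00000007044) averaged 2.23 and 4.22 CPM (log2 fold change 0.90, SE 0.175, adjusted p = 0.0260). *Cc2d2a* (ENSRNOG00000059715), a protein of the ciliary transition zone, stood at 17.1, 22.2, 17.7, 17.5 and 20.4 CPM in Dup/+ and at 27.7, 25.1, 28.9 and 27.5 CPM in Del/Dup (log2 fold change 0.52, SE 0.089, adjusted p = 0.00755). For all 3 genes the lowest Del/Dup library was above the highest Dup/+ library.

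*Col16a1* (ENSRNOG00000031475), a fibril-associated collagen, rose from 9.72 to 15.7 CPM (log2 fold change 0.69, SE 0.127, adjusted p = 0.0159), and *P3h3*, a prolyl hydroxylase of collagens, from 9.48 to 17.6 CPM (log2 fold change 0.89, adjusted p = 0.0440; call lost in 12 of the 19 fits without 1 library). *Irf3* (ENSRNOG00000043388), the interferon regulatory factor of innate antiviral signalling, stood at 7.43, 11.1, 9.50, 9.43 and 11.7 CPM in Dup/+ and at 19.8, 14.7, 20.6 and 16.8 CPM in Del/Dup (log2 fold change 0.86, SE 0.168, adjusted p = 0.0260). Del/Dup replicates 2 and 4 were the highest for *Irf3*. *Ramp3*, which modifies calcitonin-family receptors, rose from 1.89 to 4.04 CPM (log2 fold change 1.06, SE 0.200, adjusted p = 0.0189). *Tspoap1*, a presynaptic active zone scaffold, rose from 136 to 174 CPM (log2 fold change 0.36, adjusted p = 0.0203), and *Car11*, an acatalytic carbonic anhydrase relative, from 66.4 to 84.8 CPM (log2 fold change 0.35, adjusted p = 0.0260). The other genes called higher among the 20 with the smallest adjusted p were *Rps6kl1*, *Cdk10*, *Dnhd1*, *Zfp384*, *Ints6l* and *Arap1*, with log2 fold changes from 0.19 to 0.53.

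The genes called lower outside the interval included *Ripor2* (ENSRNOG00000018804), an inhibitor of RhoA, at 116, 105, 119, 117 and 116 CPM in Dup/+ and 84.1, 100, 92.0 and 98.3 CPM in Del/Dup (log2 fold change -0.29, SE 0.057, adjusted p = 0.0260). *Ythdf2*, a reader of N6-methyladenosine that promotes mRNA decay, fell from 54.1 to 47.8 CPM (log2 fold change -0.18, SE 0.037, adjusted p = 0.0399), a call lost in 14 of the 19 fits without 1 library. *Lbhd2* had 9 to 24 reads in the Dup/+ libraries and 3 to 5 in the Del/Dup libraries (log2 fold change -1.51, SE 0.303, adjusted p = 0.0330).

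Among the genes with the largest fold outside the interval were a pair without names. AABR07070225.1 (ENSRNOG00000015333) stood at 1.90, 1.59, 1.85, 2.08 and 2.10 CPM in Dup/+ and at 1.07, 0.837, 0.896 and 0.980 CPM in Del/Dup (log2 fold change -0.95, SE 0.174, adjusted p = 0.0157). It averaged 1.37 CPM in wt and 0.478 CPM in Del/+, the lowest of the 4 groups, and the RefSeq table gives it no place. Whether it lies in or near the interval is therefore not known. AABR07043287.1 (ENSRNOG00000057292) stood at 1.20, 1.66, 1.91, 1.73 and 0.198 CPM in Dup/+ and at 0.140, 0.0523, 0.467 and 0.118 CPM in Del/Dup. Dup/+ replicate 5 lay among the Del/Dup libraries, so the groups overlapped (log2 fold change -2.35, SE 0.497, adjusted p = 0.0472). This call was lost in 16 of the 19 fits without 1 library.

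**Figure D4:**
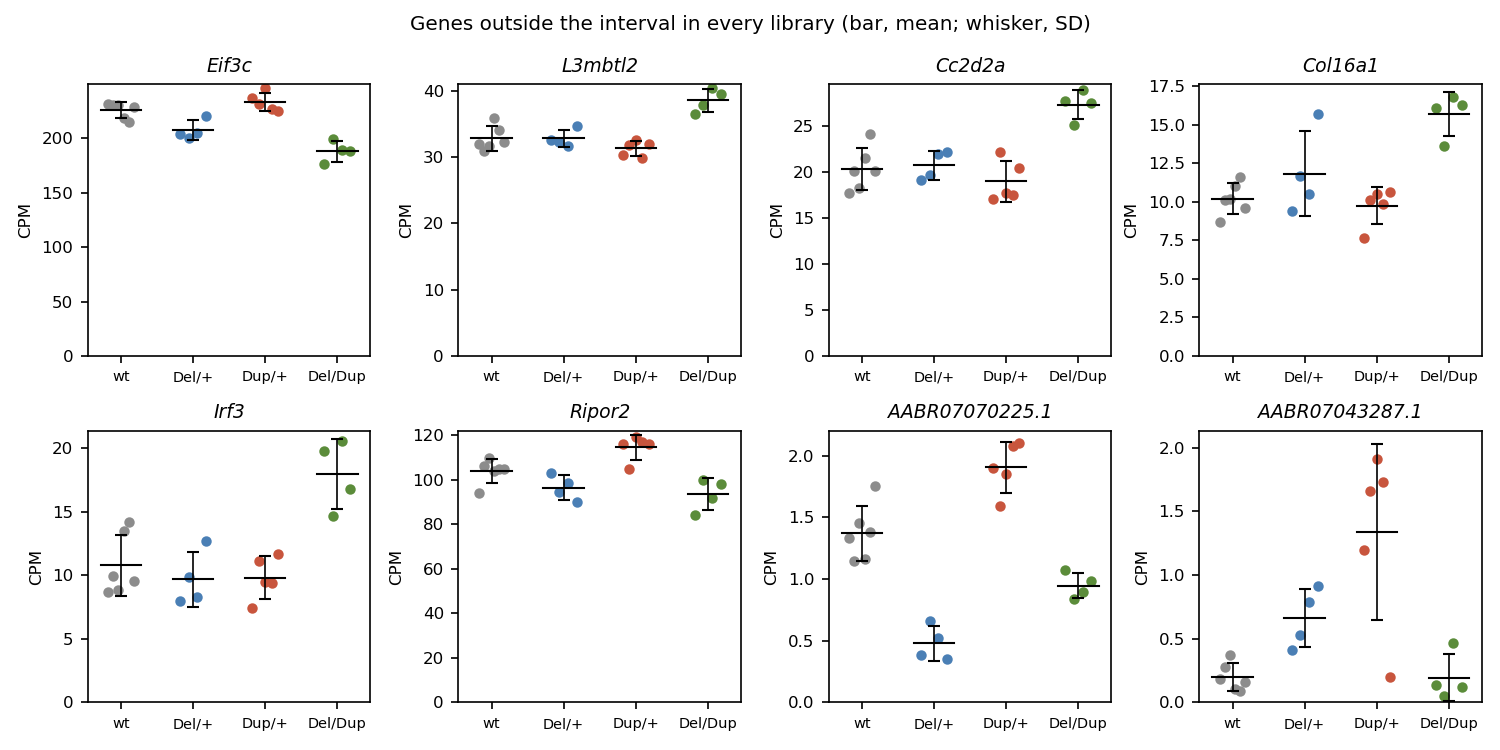
CPM (vertical axis, from 0) of 8 called genes absent from the interval list in each of the 19 libraries by genotype. Points are libraries, bars means and whiskers SD. *L3mbtl2*, *Cc2d2a*, *Col16a1* and *Irf3* are higher and *Eif3c*, *Ripor2* and AABR07070225.1 lower in every Del/Dup library than in any Dup/+ library, and Dup/+ replicate 5 stands apart at 0.198 CPM for AABR07043287.1.

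The number of calls outside the interval depended on which libraries of either group were included. Without Dup/+ replicates 1 to 5 in turn it was 7, 13, 7, 11 and 23. Without Del/Dup replicates 2 and 5 in turn it was 9 and 35. *Ttr*, the transthyretin of choroid plexus, was highest in Del/Dup replicates 2 and 4, at 1090 and 500 CPM, beside 96.3 and 34.4 CPM in the other two and 2.85 to 352 CPM in Dup/+. Without Del/Dup replicates 2 and 4 there were 2 calls outside the interval and 18 inside it, with a median interval log2 fold change of -0.584. With *Ttr* as a covariate there were 3 calls outside and 18 inside. Of the 29 calls outside the interval 2 were kept in that fit, *Eif3c* and *L3mbtl2*. Over the 32 alternative fits, 0 of the 29 were called in every one and 26 were lost in 5 or more. None of the 29 changed sign, and a lost call alone does not show that the difference went away. The log2 fold change ran from 0.443 to 0.652 for *Cc2d2a* and from 0.268 to 0.356 for *Zfp384*, but from -0.674 to -0.0908 for *Hba-a2*. Leaving out Del/Dup replicate 4 alone left 4 calls outside the interval, and leaving out replicate 3 gave 60.

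Lists of pathways into which interval genes feed held no call by edgeR, DESeq2 or limma voom. Among 37 tested genes of the ERK pathway, into which *Mapk3* feeds, none was called and 9 had an unadjusted p under 0.05 (5 lower, 4 higher), beside 13.5% of all genes at that threshold, with a median log2 fold change of -0.04. *Dusp1*, a phosphatase induced by ERK activity, averaged 14.2 CPM in Dup/+ and 29.5 CPM in Del/Dup (log2 fold change 1.05, SE 0.328, adjusted p = 0.181). None of 28 genes of the CUL3 and RhoA pathway was called, 5 had an unadjusted p under 0.05, and the median was -0.02; *Rock1*, a kinase effector of RhoA, had the smallest p (log2 fold change 0.27, SE 0.088, adjusted p = 0.189). Of 62 synaptic genes none was called, 7 had an unadjusted p under 0.05 and the median was -0.05. For these and the lists that follow, the count at an unadjusted p under 0.05 is to be read against the same 13.5%.

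Of the 18 immediate-early genes, transcribed within minutes of neuronal activity, none was called by edgeR, DESeq2 or limma voom, 5 had an unadjusted p under 0.05, all higher, and the median log2 fold change was 0.30 beside -0.001 for all genes. *Egr2* stood at 1.03 to 3.27 CPM in Dup/+ and at 9.95, 2.62, 5.57 and 2 CPM in Del/Dup, so that again replicates 2 and 4 were highest (log2 fold change 1.24, SE 0.395, adjusted p = 0.191). Their summed level was 701 to 903 CPM in Dup/+ and 719 to 991 CPM in Del/Dup.

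Among the markers of other cell types, the 19 choroid plexus genes had a median log2 fold change of 1.51, with 6 at an unadjusted p under 0.05, all higher, and none called by edgeR, DESeq2 or limma voom. Their summed level was 186 to 724 CPM in Dup/+ and 250 to 1744 CPM in Del/Dup. Genes of neighbouring brain regions summed to 313 to 337 CPM in Dup/+ and 327 to 460 CPM in Del/Dup (20 tested, none called, 4 at an unadjusted p under 0.05, all higher). Both sums were highest in Del/Dup replicates 2 and 4, at 1744 and 952 CPM for choroid plexus and 460 and 401 CPM for neighbouring regions, while replicates 3 and 5, at 324 and 250 and at 327 and 329 CPM, lay inside the Dup/+ ranges. The 20 genes of hippocampal subfields had a median of -0.16 with none called, 3 lower and 1 higher at an unadjusted p under 0.05. In bulk tissue, fewer cells of a type and less RNA per cell cannot be told apart. The lists of interneurons, oligodendrocytes, astrocytes, microglia, vascular and meningeal cells, and motile cilia held no gene called by edgeR, DESeq2 or limma voom, and 11 of their 142 tested genes had an unadjusted p under 0.05, beside 13.5% of all genes, with medians between -0.07 and 0.05.

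The list of globin and erythroid genes had a median log2 fold change of -0.56, with 1 of 7 tested genes called and 6 at an unadjusted p under 0.05, all lower; DESeq2 called 3. *Hba-a2* (ENSRNOG00000029886), an alpha globin, stood at 108, 115, 96, 104 and 133 CPM in Dup/+ and at 65.6, 93.2, 74.2 and 68.6 CPM in Del/Dup (log2 fold change -0.56, SE 0.120, adjusted p = 0.0473). The *Hba-a2* call was lost in 15 of the 19 fits without 1 library, and over all alternatives its log2 fold change ran from -0.674 to -0.0908. Reads that align to several globin copies fall among the multi-mapped reads and not to a gene, so the level of each copy is uncertain. The summed level of the list was 184 to 250 CPM in Dup/+ and 134 to 168 CPM in Del/Dup, and 120 to 163 CPM in wt and 106 to 165 CPM in Del/+, so that Dup/+ was the group that stood apart from the rest.

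The lists of adult neurogenesis, heat shock, circadian clock, cholesterol synthesis, interferon and MHC, oxidative phosphorylation and ribosomal proteins held no gene called by edgeR, DESeq2 or limma voom; 21 of their 253 tested genes had an unadjusted p under 0.05, beside 13.5% of all genes, and the medians lay between -0.07 and 0.07. The glucocorticoid list held 1, *Sult1a1*, which is also an interval gene. Of its 15 tested genes, *Sult1a1* included, 4 had an unadjusted p under 0.05 in edgeR, 3 lower and 1 higher. Of 12 tested genes that the study had named on these samples, none was called by edgeR or limma voom, 2 were called by DESeq2 (*Ucp3* and *Sema3a*), and 5 had an unadjusted p under 0.05 in edgeR; since they were chosen on these libraries, they are not independent evidence.

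**Figure D5:**
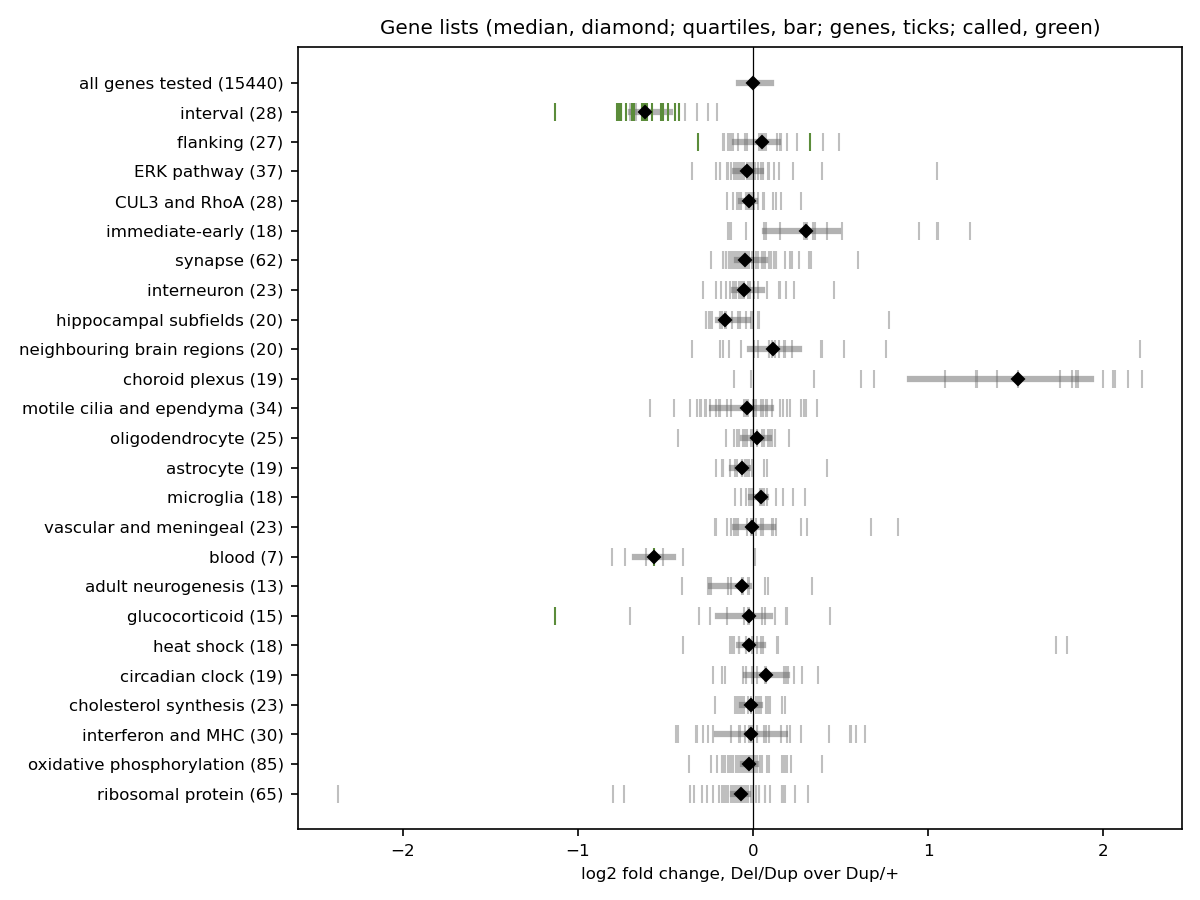
Log2 fold change of Del/Dup over Dup/+ (horizontal axis) for the genes of each list, number tested in parentheses; ticks are genes (green, called), bars the quartiles and diamonds the median. The interval stands at a median of -0.62, choroid plexus at 1.51 with a wide spread and no call, and blood genes at -0.56.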

How the data were processed

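RNA of the hippocampus of 19 male Sprague-Dawley rats was made into stranded libraries by the authors with a total RNA kit (the labels' protocol describes rRNA removal, the molecule field polyA RNA) and sequenced as single-end reads. Per the labels and the study's methods, the authors aligned reads with HISAT2 to rn6 and counted them with HTSeq. The deposited files hold raw counts of reads for each Ensembl gene, without normalization. Of 32623 genes, 15440 passed filterByExpr and were tested; the 5 summary lines were left out (multi-mapped 40.1% to 76.3%, no feature 6.94% to 16.1%, ambiguous 0.142% to 0.334% of counted lines, the rest 0).

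The main fit used edgeR 4.0.16 in R 4.3.3: TMM scaling, quasi-likelihood F test, 1 mean per genotype over all 19 libraries, prior count 2, SE from the F statistic, Benjamini-Hochberg adjustment over all genes tested. All 19 libraries entered so that the 4 genotypes share 1 estimate of the spread. Alternatives used DESeq2 1.42.0 and limma 3.58.1, other scalings, filters, covariates and left-out libraries. Replicate pairs differed by a chi-square of 7.39 to 22.5 per degree of freedom, so none was a repeat deposit. The common biological coefficient of variation was 0.101. In simulated data for this comparison (15440 genes), 83 of 100 genes changed by 0.585 on the log2 scale, 47 of 50 changed by 1 and 49 of 50 changed by 2 were called, with 8 unchanged genes called. The changed genes were drawn from those averaging at least 1 CPM. No difference in multi-mapped share or tissue between the groups was simulated, so the figures do not cover such differences. P-values measure the spread between animals.

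Groups came from the sample descriptions. Genes named are all interval genes; flanking genes called or next to the interval; outside, the 20 called genes with the smallest adjusted p and the 5 with the largest fold at 1 CPM or more; and of the other lists the called genes or a few with the smallest p. The members and the 25 gene lists were chosen with earlier results of these data known. Gene order came from RefSeq GRCr8, another assembly than that of the files, which placed 13662 of the genes tested (88.5%); its coordinates were not used. Guide and primer sequences came from the study's methods. The authors' expression tests were not used here. The fit with *Ttr* as a covariate is reported; one other gene, and a fit with that gene as the covariate, are not reported here.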

Additional observations from a re-analysis of the deposited data

Results flagged for a closer look

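Of 138 groups of 4 or 5 libraries examined for a sample far from the others, 7 held one, and chance gives about 1 in 20. *Ypel3* stood at 151 CPM in Dup/+ replicate 3, the other Dup/+ libraries at 128 to 132 CPM. *Col16a1* stood at 7.64 CPM and *Ints6l* at 6.93 CPM in Dup/+ replicate 1, below 9.85 to 10.6 and 7.51 to 7.72 CPM in the others. *Ripor2* stood at 105 CPM in Dup/+ replicate 2 against 116 to 119 CPM, and in the same library *Ttr* stood at 352 CPM against 2.85 to 88.4 CPM and the summed genes of neighbouring brain regions at 313 CPM against 331 to 337 CPM. The summed blood genes stood at 168 CPM in Del/Dup replicate 3 against 134 to 140 CPM in the other Del/Dup libraries.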

How the results depend on the processing

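The interval result varied least. Against 20 interval calls and a median log2 fold change of -0.62, the 19 fits that each left out 1 library gave 19 to 21 calls and medians from -0.627 to -0.59; all calls ran from 23 to 79 against 49, calls outside the interval from 4 to 60 against 29, and flanking calls from 1 to 2 against 2. Each end of the wide ranges came from 1 Del/Dup library, replicate 4 (lowest) and replicate 3 (highest). Calls outside the interval were 7, 13, 7 and 11 without Dup/+ replicates 1, 2, 3 and 4 in turn, 9 without Del/Dup replicate 2, 19 without wt replicate 3, 17 without wt replicate 6 and 49 without wt replicate 5.

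Library size alone gave 31 calls, 12 outside the interval and 1 flanking. DESeq2 gave 177, 156 of them outside. With wt replicate 5 counted as Dup/+ there were 12 calls, 9 in the interval, 3 outside and 1 flanking, and a median of -0.549. The term for high multi-mapped share left 7 calls, 6 in the interval, 1 outside and 0 flanking; multi-mapped share as a covariate gave 30 calls, 12 outside and 1 flanking; *Ttr* as a covariate 21 calls, 3 outside and 1 flanking. In an alternative chosen after seeing the data, leaving out Del/Dup replicates 2 and 4 gave 20 calls, 2 outside and 1 flanking, with the remaining pair assumed to vary like the other groups. The cause of these moves was not tested. RLE scaling, limma voom, the other filters on low counts and the 9 libraries alone kept all these counts within 1.5 times. The genes called changed more than the counts. Of the 29 calls outside the interval, RLE scaling shared 29, limma voom 23 and the 9 libraries alone 15. No filter on low counts shared 22, and the filter at 1 CPM 28.

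None of the 49 called genes reversed in any alternative. Among the 65 genes followed through the alternatives, which are not all genes tested, the signs that turned, none of a called gene, were *Qprt* (0.01466), AABR07005779.6 (0.892) and AABR07015081.2 (-1.042) with the term for high share, AABR07005779.6 (0.1279) with the share as a covariate, and, without Del/Dup replicates 2 and 4, *Prox1* (0.09679) and *Ttr* (-0.5102).

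The replicate numbers 2 to 5 that Del/Dup and Dup/+ share did not pair the samples: deviations from the group means of same-numbered libraries correlated at -0.11 to 0.082 (across genes), and 0 of 4 Del/Dup libraries correlated best with its own number. The fit with a replicate block made 52 calls, of which 19 were interval genes and 33 were not, and a median of -0.601.

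The multi-mapped share counted over gene plus multi-mapped reads differed by 16.2 percentage points, against 16.3. Depth limited genes near 1 CPM, and 6 interval genes had too few reads to test.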
